A study of Caenorhabditis elegans with 2 samples.

Results

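Of the 20360 peaks in the relaxed list called on both LIR-3 replicates together, 379 had their summit at a divergent pair of protein-coding genes. These peaks were chosen by annotation alone. The summit had to lie from 500 bp upstream to 200 bp downstream of a protein-coding gene start on each strand, with no start of a tRNA, snoRNA, snRNA or miRNA gene in the same window. They fell at 359 pairs, or 718 genes. Some pairs held more than 1 peak, so members can share a promoter. The starts were head to head, with the minus-strand start to the left of the plus-strand start, in 373 of the 379, and the starts were crossed in the others. A further 12 divergent peaks held a small RNA start and were left out, 6 of them overlapping a peak of the reproducible list described next.

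Chromatin immunoprecipitation with sequencing (ChIP-seq) was done with an antibody to GFP on whole Caenorhabditis elegans hermaphrodites at the L4 larval stage, 48 hours after synchronization by L1 starvation. The animals, of strain OP312, carried unc-119(ed3) and the transgene wgIs312, which encodes a LIR-3 fusion to GFP-FLAG at the C-terminus. The promoter that drives the fusion is not given in the sources used here. All samples formed 1 group of 2 biological replicates, a mock immunoprecipitation is not analysed here, and the comparisons are between kinds of region. A relaxed list holds background regions by design. The submitters' irreproducible discovery rate (IDR) procedure kept 552 peaks as reproducible, and the lowest signal value among them was 88.9. Signal values are scores that the authors deposited, on a scale that is not stated. The lists hold no read counts, so depth is unknown. The peak was the unit of every test. Tests over peaks do not measure the spread between animals or cultures, and peaks at one pair are not independent.

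LIR-3 belongs to the LIN-26 family of zinc-finger proteins. Divergent promoters place genes on opposite strands with their starts facing away from each other, so that a factor bound between them lies upstream of both. In C. elegans many transcripts are trimmed at the 5′ end by trans-splicing, and an annotated gene start can therefore lie downstream of the place where transcription begins.

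The sequences around 8 of the summits are shown because they carry the short motifs that the results refer to and include the strongest peaks. Each covers 50 bp to either side of the summit, on the plus strand of build ce11 (WBcel235), read from the RefSeq genome. Capitals mark a match on either strand to TGCGTCTC, to the E2F-type motif, to the A box, to GAGAGAGA, to CATACACTC or to a heat shock element, here 3 blocks of GAA or its complement TTC in alternation with 2 bases between blocks. The E2F-type motif was spelled TTCCCGC or TTCGCGC or TTGCCGC or TTGGCGC. A match describes letters only.

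The summit between rpl-20 and Y17G9B.5 lies in IV:4750032-4750132, that between rpl-15 and K11H12.8 in IV:654845-654945, and that between drr-2 and set-16 in III:13643684-13643784. The other windows are II:11759428-11759528 for F44E5.4 and F44E5.5, III:8447106-8447206 for hsp-110 and rpn-3, IV:17087565-17087665 for snx-13 and snr-1, II:11874823-11874923 for npp-3 and top-2, and IV:1745774-1745874 for Y41D4A.6 and Y41D4A.4. All 8 summits lay outside annotated protein-coding genes.
rpl-20/Y17G9B.5: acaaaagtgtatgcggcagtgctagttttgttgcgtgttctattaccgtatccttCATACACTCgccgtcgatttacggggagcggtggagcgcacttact
rpl-15/K11H12.8: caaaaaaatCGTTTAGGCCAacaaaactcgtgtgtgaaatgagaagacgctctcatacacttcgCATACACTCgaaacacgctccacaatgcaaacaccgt
drr-2/set-16: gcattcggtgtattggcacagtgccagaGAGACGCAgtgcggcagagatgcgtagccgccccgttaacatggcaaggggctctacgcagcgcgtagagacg
F44E5.4/F44E5.5: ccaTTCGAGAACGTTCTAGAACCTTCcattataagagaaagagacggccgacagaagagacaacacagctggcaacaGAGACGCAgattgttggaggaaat
hsp-110/rpn-3: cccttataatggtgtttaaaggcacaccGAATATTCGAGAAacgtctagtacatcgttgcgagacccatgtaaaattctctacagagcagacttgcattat
snx-13/snr-1: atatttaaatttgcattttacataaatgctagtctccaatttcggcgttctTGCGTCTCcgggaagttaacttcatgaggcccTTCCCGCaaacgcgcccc
npp-3/top-2: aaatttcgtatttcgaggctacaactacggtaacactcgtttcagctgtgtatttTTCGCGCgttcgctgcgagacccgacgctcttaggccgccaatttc
Y41D4A.6/Y41D4A.4: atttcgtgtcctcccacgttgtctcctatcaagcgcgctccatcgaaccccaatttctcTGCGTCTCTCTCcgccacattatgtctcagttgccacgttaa

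Among the relaxed peaks, those at divergent pairs overlapped an IDR peak more often than those at starts on 1 strand did. Peaks that overlap an IDR peak are called reproducible below. Of the 379 peaks, 39 (10.3%, 95% Wilson interval 7.62 to 13.8) overlapped an IDR peak by 1 bp or more, against 3.21% of all 20337 nuclear peaks. At protein-coding starts on 1 strand only, again with no small RNA start, 98 of 3145 peaks did (3.12%, 2.56 to 3.78). The odds ratio was 3.56 (95% interval 2.35 to 5.31), with p = 3.66e-09 by two-sided Fisher's exact test. Peaks at other noncoding starts only overlapped in 61 of 1205 cases (5.06%), and peaks with no gene start in the window in 146 of 14792 (0.987%).

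The kind of sequence under the summit moved with this difference. Summits lay outside protein-coding genes in 76.5% of the peaks at divergent pairs and in 54.3% of those at starts on 1 strand. Among such intergenic summits, 32 of 290 at divergent pairs and 84 of 1709 at starts on 1 strand overlapped an IDR peak. The odds ratio there was 2.40 (95% interval 1.51 to 3.73), with a Fisher's exact p of 0.000182. Coding exons held 710 of the 3145 one-strand summits, 1 of them reproducible, and 37 of the divergent summits, also with 1 reproducible. Counting bases instead of peaks, the window reached starts on both strands over 0.784 Mb of the genome, with 49.7 reproducible peaks per Mb. It reached a start on 1 strand only over 12.2 Mb, with 8.02 per Mb. Relaxed peaks of any kind were also denser in the bases reaching both strands, at 483 per Mb against 257 per Mb.

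**Figure D1:**
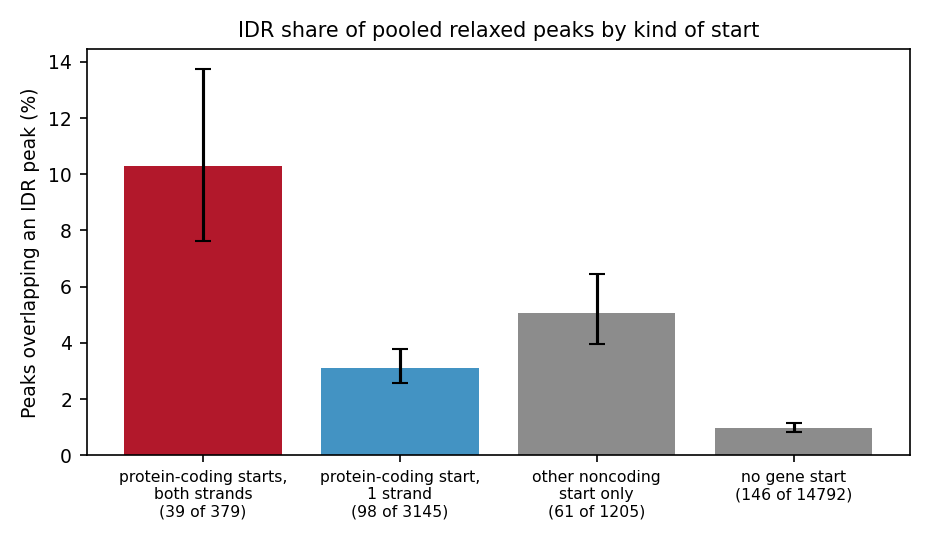
Share of pooled relaxed peaks that overlap an IDR peak (percent, vertical axis) for 4 kinds of summit. Bars are shares and error bars 95% Wilson intervals, and the divergent pairs stand at 10.3% against 3.12% at starts on 1 strand.

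The reproducible peaks at divergent pairs were not shown to differ in signal from those at starts on 1 strand. Their mean log2 signal was 6.84 ± 0.33 (SD, n = 39) against 6.66 ± 0.79 (n = 98), a difference of 0.18 with p = 0.167 by a two-sided permutation test of 100000 resamples. That difference depended on peaks that only touch a stronger neighbour. With the IDR peaks themselves, its sign turned to -0.09 (p = 0.207, permutation test). When the IDR list was replaced by an equal number of peaks, the strongest of replicate 1, it was 0.32 (p = 0.0217, permutation test).

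Of the 39 peaks, 38 were IDR peaks themselves. The other was a second summit between pde-6, a cyclic phosphodiesterase gene, and Y95B8A.6, with a signal of 72.1 beside its neighbour's 99.7. The 39 thus stood at 38 pairs and 76 genes. Signal chose the IDR list, so the following levels are descriptions. The IDR-overlapping peaks had a median pooled signal of 113 (range 72.1 to 236), and the other 340 a median of 36.0 (23.5 to 87.4).

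The strongest peak at a divergent pair, IV:4749997-4750206, lay between rpl-20, which encodes a protein of the large ribosomal subunit, and Y17G9B.5, a homologue of the mitochondrial ECSIT protein. Its signal was 236 in the pooled list, 132 in the list of replicate 1 and 99.6 in that of replicate 2. The summit stood 304 bp upstream of rpl-20 and 158 bp upstream of Y17G9B.5. The second, IV:654687-655102, lay between rpl-15, for another protein of the large subunit, and K11H12.8, with signals of 196, 98.1 and 96.7 in the pooled, replicate 1 and replicate 2 lists. Among the divergent pairs these ranked first and second in all 3 lists.

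The third peak, III:13643655-13643830, separated drr-2, an RNA-binding protein gene, from set-16, a histone methyltransferase of the trithorax group, with signals of 181, 84.2 and 94.0 in the same order. F44E5.4 and F44E5.5, HSP70 genes in inverted orientation, flanked a peak of 139, 83.9 and 52.4. The flanks of this pair were inverted copies, 90.2% identical over 500 bp to either side of the centre and 44.0% over the innermost 50 bp. Over 100 bp to either side, about the width of the peak, the identity was 52.0%. Whether reads of the outer arms were assigned to both copies was not tested. Between rps-19, for a protein of the small ribosomal subunit, and hsr-9, the 53BP1 homologue, the values were 138, 62.9 and 76.1. Between hsp-110, a co-chaperone of HSP70, and rpn-3, a proteasome lid subunit, they were 136, 66.4 and 68.2. Values of separate lists share no scale. By rank within the lists of replicates 1 and 2, the peak at the HSP70 pair stood at 145 and 364. The ranks were 296 and 151 at rps-19 and hsr-9, and 257 and 204 at hsp-110 and rpn-3.

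The remaining pairs among the 10 strongest were snx-13, a sorting nexin, with snr-1, the SmD3 subunit of the spliceosome (131, 78.3 and 53.9), and sec-61.B with trap-3 (130, 57.2 and 75.7). The others were npp-3, a nuclear pore scaffold protein, with top-2, a DNA topoisomerase (129, 67.8 and 58.9), and mcrs-1 with atp-1, the alpha subunit of mitochondrial ATP synthase (127, 62.1 and 62.7).

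At the lower end, the list's limit cut through a continuous range. Just above it stood F40F11.3 with mig-38 and F25H9.6 with F25H9.7, both at 89.1. Just below it stood nmat-1 with ucr-2.1, a NAD synthesis gene beside a gene for a core protein of respiratory complex III (X:12017961-12018376, 87.4), and haf-3, an ABC transporter gene, with F57A10.2 (V:15766184-15766599, 86.6). The replicate values of nmat-1 and ucr-2.1 were 42.0 and 40.3, within the range of the 39 in both lists. Those of haf-3 and F57A10.2 were 50.2 and 35.9, also within it.

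In the relaxed list of each replicate, a peak overlapped each of the 39 IDR-overlapping peaks. Both summits at pde-6 and Y95B8A.6 met the same peak of replicate 1, with a signal of 41.1. Among the 552 strongest peaks of a list, replicate 1 had 30 of the 39, replicate 2 had 29, both had 22 and neither had 2. Neither replicate ranked the ctf-4 and eef-1G peak or the second pde-6 and Y95B8A.6 peak that high. Single replicates could differ. The peak between mig-5, a Dishevelled homologue, and cct-1, a subunit of the TRiC chaperonin, ranked 147 in replicate 1 and 1978 in replicate 2, with signals of 82.8 and 28.6. The peak between prx-13 and ada-2 ranked 1351 in replicate 1 and 349 in replicate 2. Of the other 340, 252 were in the list of replicate 1 and 251 in that of replicate 2, and 0 were among the strongest 552 of both. Summits of single replicates lay a median of 10 bp (replicate 1) and 13 bp (replicate 2) from the pooled summit in the 39, and 19 and 25 bp in the others.

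**Figure D2:**
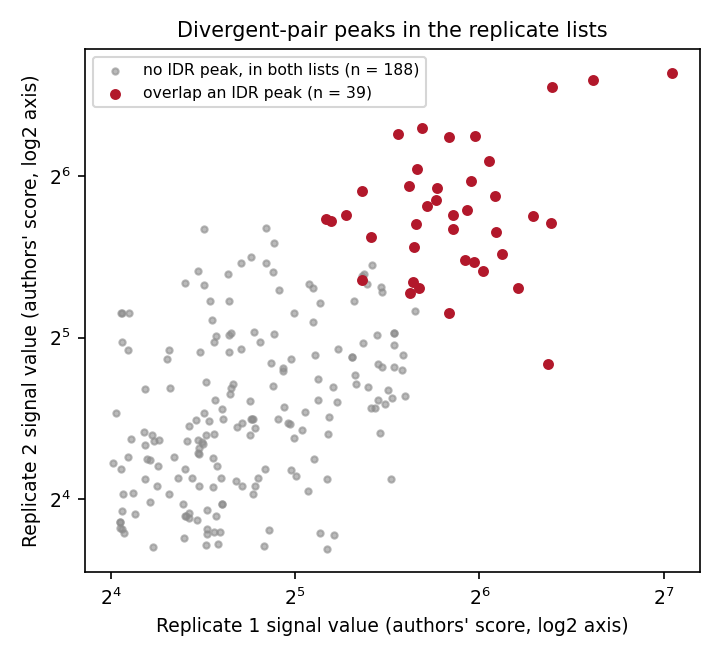
Signal value in the list of replicate 1 (horizontal, log2 axis) against that in the list of replicate 2 (vertical, log2 axis) for peaks at divergent pairs present in both, both in the authors' score. The 39 IDR-overlapping peaks (red) reach from 35.9 to 132 in replicate 1 and from 28.6 to 99.6 in replicate 2, above most of the others (grey, n = 188).

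Genes for ribosomal proteins and chaperones had larger shares at the peaks than all genes did, as counts without a test. Of the 718 genes at the peaks, 76 (10.6%) stood at an IDR-overlapping peak, and the median signal over the 718 was 38.8. Of 81 genes for cytosolic ribosomal proteins, 17 (21.0%) had a divergent peak, against 3.59% of all 19973 protein-coding genes. Their median signal was 58.0, and 5 stood at an IDR-overlapping peak. These were rpl-20, rpl-15, rps-19, rps-15 (120) and rpl-12 (114). The other 12 ranged from 25.5 at rpl-25.2 to 73.9 at rpl-5. The pair rps-14 and rpl-36, with a ribosomal protein gene on either side, had only 40.3 in the pooled list, 23.5 in replicate 1 and 16.9 in replicate 2.

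Of 59 chaperone genes, 14 (23.7%) had a divergent peak, with a median signal of 49.8, and 4 stood at an IDR-overlapping one. These were hsp-110, cct-1 (113), cct-8 (94.9, another TRiC subunit) and dnj-19 (90.1, a DnaJ-type co-chaperone). The HSP70 genes F44E5.4 and F44E5.5 carry no chaperone symbol and are outside that count. The small heat shock genes hsp-16.2 and hsp-16.41, which are strongly induced by heat in C. elegans, shared a peak of 33.6 that was in the list of replicate 2 (16.4) and not in that of replicate 1.

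Other housekeeping groups also had larger shares than all genes did, with 0 to 3 genes each at IDR-overlapping peaks. RNA processing genes had a peak at 13 of 50 and an IDR-overlapping one at snr-1 only. Proteasome and ubiquitin genes had them at 11 of 62 and at rpn-3, mitochondrial respiration genes at 7 of 35 and at atp-1, and nuclear pore and transport genes at 5 of 35 and at npp-3. Translation factor and tRNA synthetase genes had them at 9 of 65 and at ears-2, a mitochondrial glutamyl-tRNA synthetase (120), and eef-1G, elongation factor 1 gamma (91.8). Mitochondrial ribosome genes had a peak at 10 of 70, replication and cell cycle genes at 5 of 49 and RNA polymerase and general factor genes at 5 of 39, with 0 IDR-overlapping in each. Their medians were 32.1, 36.5 and 34.6, near that of all 718 genes. Chromatin genes had a peak at 8 of 70, with a median of 72.9, and 3 overlapped an IDR peak, at set-16, lin-35 (111) and lin-53 (108). Of all 718 genes at the peaks, 10.6% did. The list took in lin-35 and lin-53 by name, with earlier results of these data known. Their peaks, and the median they raise, are therefore no support for the group.

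Families of regulators, receptors and cuticle proteins had smaller shares. A divergent peak stood at 1 of 269 nuclear hormone receptor genes (nhr-47, 90.1, which shares its peak with dnj-19), 1 of 63 homeobox genes and 2 of 156 collagen genes. It stood at 4 of 1116 chemoreceptor genes. All of these shares are under the 3.59% of all genes. A list's count also depends on how many of its genes have a divergent neighbour.

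No difference in position between the starts passed after adjustment. The paired starts were 391 ± 186 bp apart (SD, n = 39) where the peak overlapped an IDR peak and 389 ± 190 bp (n = 340) elsewhere, a difference of 1.81 bp (two-sided permutation p = 0.951, adjusted p = 1 over 6 tests). Here and below, without replicate 1 means that the 552 strongest peaks of replicate 2 replaced the IDR list, and without replicate 2 the converse. The members and their summits stayed those of the list pooled over both replicates. The difference was 46.5 bp without replicate 1 and 39.3 bp without replicate 2 (adjusted p = 0.264 and 0.326, permutation test). The narrowest reproducible pairs were F25H9.6 with F25H9.7 at 15 bp, ears-2 with uncp-18, for a syntaxin-binding protein, at 92 bp and T26A8.4 with pdtf-1 at 145 bp. The widest were rpl-15 with K11H12.8 at 814 bp, rps-15 with F36A2.9 at 781 bp and sec-61.B with trap-3 at 770 bp. By distance, the share overlapping an IDR peak was 11 of 54 (20.4%, Wilson 11.8 to 32.9) at 400 to 500 bp and between 5.88% and 12.5% in the other classes.

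Summits lay between the starts in 32 of 39 and in 261 of 340 cases (odds ratio 1.38, 0.570 to 3.86, p = 0.548 by Fisher's exact test, adjusted p = 0.822). The nearest start was 140 ± 101 bp and 130 ± 94.4 bp away (SD, n = 39 and 340, permutation p = 0.522, adjusted p = 0.822). By the median they were 164 and 111 bp away, a difference of 53.0 bp that missed the threshold after adjustment (permutation p = 0.0244, adjusted p = 0.0733). A closer look at the centre, made after the values were seen, gave a mean distance to the midpoint of 73.8 ± 69.6 bp against 98.7 ± 76.4 bp, a difference of -24.9 bp (permutation p = 0.0463). The threshold of 0.05 was passed narrowly, and not without replicate 1 (-16.4 bp, p = 0.215, permutation test). Without replicate 2 the difference was -39.0 bp (p = 0.0034, permutation test), and with a window of 1000 bp it was -53.0 bp (p = 0.0027, permutation test). Within 25 bp of the midpoint lay 15 of 39 (38.5%) and 63 of 340 (18.5%), and within 50 bp 18 of 39 (46.2%) and 114 of 340 (33.5%). Summits 100 bp or more upstream of both starts numbered 23 of 39 (59.0%) and 167 of 340 (49.1%). In 11 of 39, against 15 of 340, the summit was 150 to 250 bp upstream of both starts. None of these cuts was among the planned comparisons, the contrast changed with the cut, and the counts were not tested. The 11 at 150 to 250 bp included the peaks at drr-2 and set-16, hsp-110 and rpn-3, rps-19 and hsr-9, mig-5 and cct-1, vps-51 and lin-35, and lin-53 and nra-2.

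**Figure D3:**
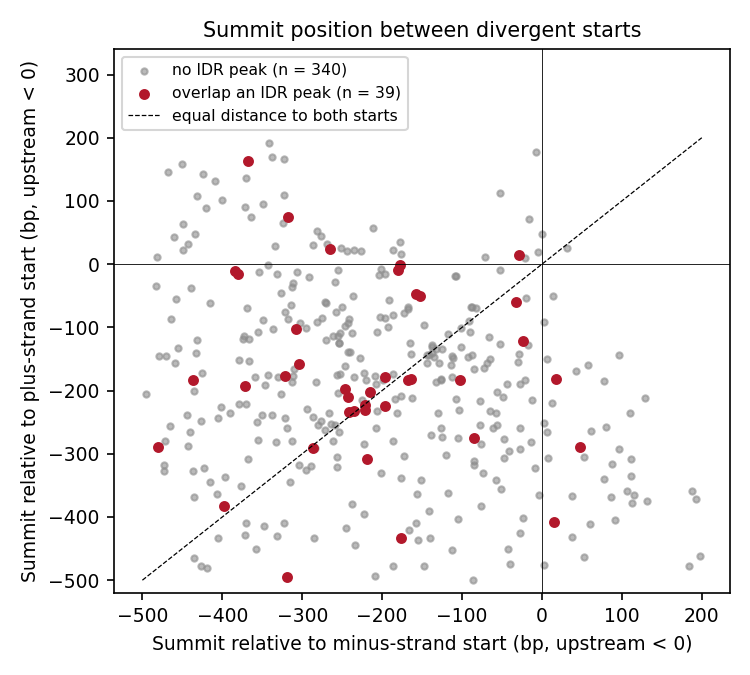
Distance of each summit from the minus-strand start (horizontal, bp) and from the plus-strand start (vertical, bp), negative upstream, with the line of equal distance dashed. Of the 39 IDR-overlapping peaks (red), 15 lie within 25 bp of the midpoint, against 63 of the other 340 (grey). Within 50 bp lie 18 and 114.

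Base composition was the property that differed most clearly. G and C made up 48.7 ± 10.2% of the bases within 50 bp of the summit in the 39 peaks and 40.3 ± 10.8% in the other 340 (SD), a difference of 8.49 percentage points. The two-sided permutation p was 2.0e-05, the smallest that 100000 resamples can give, and 0.00012 after adjustment. The groups overlapped widely, from 18.8% at F56B3.11 and ech-5 to 66.3% at pde-6 and Y95B8A.6 in the first and from 14.9% to 65.3% in the second. The same held at starts on 1 strand (47.7 ± 10.5% of 98 against 39.6 ± 10.9% of 3047, permutation p = 2.0e-05). Reproducible peaks of the 2 kinds differed by 1.05 points (p = 0.609, permutation test), so the composition was not shown to differ between them. How far base composition affects read recovery and peak calling was not tested.

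**Figure D4:**
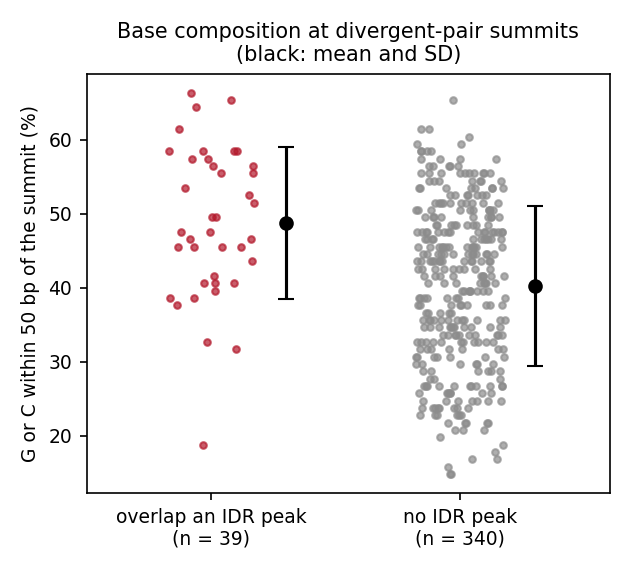
Percent G or C within 50 bp of each summit (vertical axis) at divergent pairs, 1 point per peak, with the mean and SD in black. The IDR-overlapping peaks average 48.7% and the others 40.3%, with wide overlap.

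Of 10 motifs searched on both strands within 50 bp of the summit, 0 passed after adjustment, and 3 had an unadjusted p under 0.05 by Fisher's exact test. The set held TGCGTCTC, the E2F-type motif, the related CCCGCC that can overlap it, the GAGA repeat GAGAGAGA, the TATA box TATAAA, the GATA-type GATAAG, the E box CACGTG, a run of TTTTTTTT, and the A box and B box of tRNA genes. TGCGTCTC was found in 6 of 39 IDR-overlapping peaks (15.4%) and 12 of 340 others (3.53%), against 1.48% of all nuclear peaks of the same window. The odds ratio was 4.93 (1.42 to 15.4), with a Fisher's exact p of 0.00593 and an adjusted p of 0.0593. At starts on 1 strand, the motif was in 9 of 98 reproducible peaks (9.18%) and in 2.58% of all peaks. For the IDR peaks themselves, the motif was in 5 of 38 against 13 of 341 (adjusted p = 0.121, Fisher's exact test). With 1 peak for each pair, the adjusted p was 0.119 by the same test. The adjusted p ran down to 0.0133 with 100 bp to each side, to 0.0325 without noncoding starts other than piRNA and to 0.0387 without replicate 1, and up to 0.291 without replicate 2, all by Fisher's exact test. The call therefore depends on these settings. The groups compared also differed in base composition, and the motif counts were not adjusted for it.

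The 6 peaks were those at drr-2 and set-16, F44E5.4 and F44E5.5, snx-13 and snr-1, T26A8.4 and pdtf-1, Y41D4A.6 and Y41D4A.4, and the second peak at pde-6 and Y95B8A.6. In the sequences above, the match was centred 18.5 bp left of the summit at set-16, 4.5 bp right of it at snr-1, 12.5 bp right at Y41D4A.4 and 30.5 bp right at F44E5.4. At T26A8.4 and pdtf-1 it was centred 34.5 bp to the right, and at the second pde-6 peak 3.5 bp to the left. Matches stood on both strands.

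The E2F-type motif was present in 4 of 39 (10.3%) and 27 of 340 (7.94%, odds ratio 1.32, adjusted Fisher's exact p = 0.888), against 4.60% of all nuclear peaks. The 4 were at snx-13 and snr-1, npp-3 and top-2, rpl-12 and lin-54, and cct-8 and Y55F3AR.2. CACGTG was found in 3 of 39 and 4 of 340 (p = 0.0264, adjusted p = 0.125, Fisher's exact), at gpap-1 and scpr-1, imp-2 and enpl-1, and F25H9.6 and F25H9.7. A run of TTTTTTTT was found in 0 of 39 and 36 of 340 (10.6%, p = 0.0374, adjusted p = 0.125, Fisher's exact). Between reproducible peaks at divergent pairs and at starts on 1 strand, 0 of the 10 motifs differed by Fisher's exact test, also with an unadjusted p under 0.05. Over all 2080 6-mers, 0 passed after adjustment and 105 had an unadjusted p under 0.05.

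On the chromosomes, peaks at divergent pairs were rarer on X, where divergent starts also took up less of the sequence. X held 13 of 379 (3.43%), against 448 of 3145 (14.2%) at starts on 1 strand (odds ratio 0.214, 0.112 to 0.375, p = 2.82e-11 by Fisher's exact test, added after the values were seen). X also held 4.37% of the bases whose window reached starts on both strands and 14.8% of those reaching a start on 1 strand. Within the members, 1 of 39 IDR-overlapping peaks was on X, between trap-2 and ile-2, and 12 of 340 others were (odds ratio 0.720, 0.0164 to 5.12, Fisher's exact p = 1, adjusted p = 1). The outer 25% at either end of the autosomes held 18 of 38 and 134 of 328 (odds ratio 1.30, 0.624 to 2.70, Fisher's exact p = 0.488, adjusted p = 0.822). Without replicate 1 the odds ratio for the arms was 2.28 (p = 0.0292, adjusted p = 0.0876, Fisher's exact), and without replicate 2 it was 1.68. With 39 peaks these intervals are wide, and neither difference passed after adjustment. On autosomes alone, the odds ratio of the IDR share between divergent and one-strand peaks was 3.43 (2.24 to 5.17, Fisher's exact p = 1.78e-08).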

How the data were processed

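Peak lists on build ce11 were used: a relaxed list of each of the 2 replicates, a relaxed list of both pooled, made as input for IDR, and the optimal IDR list. Each peak's signal is a score that the authors deposited, and its summit is the authors' deposited offset from the peak start. Signal was compared within a list only. Which aligner and caller made them is not given in the sources used here. Control reads are not analysed here, and ce10 lists were not used here. Depth is unknown, and Wilson intervals cover counting error only.

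Gene starts came from the Ensembl WBcel235 annotation (release 115) and sequence and products from RefSeq. Coordinates are 1-based. For each strand the start nearest the summit was taken. A replicate's value is that of its peak nearest the pooled summit among those overlapping the pooled peak. Fisher's exact test (two-sided, conditional 95% interval) served for shares, permutation with 100000 resamples for means, and p-values were adjusted by the Benjamini-Hochberg method over 6 properties, 10 motifs or all 6-mers. The functions were tested on simulated data. In the settings without a replicate, as many of the strongest peaks of the other replicate replaced the IDR list. Members and signals stayed those of the pooled list. There were 13 alternative settings, and 3 more were added after the data were seen: the IDR peaks themselves, intergenic summits only and autosomes only. The midpoint distance, the X share by kind of start and 2 comparisons of base composition were added then too.

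The members, the 15 gene lists (matched by symbol), the motifs and the rule for named genes were chosen with earlier results of these data known, and no pattern here is independent support for those results. The rule names the 10 strongest IDR-overlapping peaks, 2 peaks to either side of the signal limit, up to 2 peaks of each list and the 3 narrowest and 3 widest pairs. Other genes were picked after their values were seen, and 1 peak that the rule names is not reported here. Tests ran in scipy 1.17.1 with numpy 2.4.6 under Python 3.11.15, tables in pandas 2.3.3, and plots in matplotlib 3.10.9.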

Additional observations from a re-analysis of the deposited data

How the results depend on the processing

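The IDR share was higher at divergent pairs under every alternative run, with odds ratios from 2.40 (intergenic summits) to 4.16 (the IDR peaks themselves), including 3.16 without replicate 1 and 2.60 without replicate 2. The difference in base composition also passed under every alternative run, from 5.79 to 9.63 points. No paired analysis was possible because all samples form 1 group.

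Signs turned only where the main value had not passed. A window of 1000 bp gave -91.8 bp for the distance between starts (adjusted p = 0.191, permutation) and -19.7 bp for the nearest start. Head-to-head pairs gave -6.38 bp for the distance between starts. Values that had not passed also moved in the same direction. The 276 strongest IDR peaks gave 71.8 bp between starts and 44.7 bp for the nearest start. With the strongest peaks of a single replicate in place of the IDR list, the nearest start gave 22.9 to 29.3 bp. The odds ratio for summits between the starts was then 1.52 to 2.92. Those 276 gave an X odds ratio of 2.45, arms of 35% an odds ratio of 0.733, and the IDR peaks themselves a log2 signal difference of -0.094. The difference in base composition between reproducible peaks of both kinds turned to -0.29 without replicate 1 (0.82 without replicate 2), -0.10 with 50% reciprocal overlap, -0.96 with 1 peak per pair, -0.54 with 100 bp and -1.76 for the IDR peaks themselves. With the strongest peaks of a single replicate in place of the IDR list, log2 signal differences were 0.17 to 0.32. Past the threshold were then 0 to 1 motifs. That motif was TGCGTCTC, which also passed alone (1 motif) with 100 bp to each side and without noncoding starts other than piRNA. The 6-mers past the threshold were 4 in the wider window (ACGCGC and also CGCGCC and also CTCCAC and also GCGTCA) and 1 with 25 bp to each side (CACTCG). The midpoint distance missed the threshold with those 276 (p = 0.0504), without replicate 1 (0.215), against the stronger peaks only (0.126) and by the median (0.108), all by permutation, and passed under the other alternatives run. The causes were not tested.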

Other observations

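In a list drawn up after the values were seen, 3 of 8 genes of the DREAM complex, a repressor of cell cycle genes, stood at a divergent pair, all at IDR-overlapping peaks. Of all protein-coding genes 3.59% stood at a divergent pair, and of those 10.6% at an IDR-overlapping peak. The 3 were lin-54, its DNA-binding subunit (114, beside rpl-12), lin-35, the retinoblastoma homologue (111, beside vps-51), and lin-53, a histone-binding protein (108, beside nra-2). Their replicate values were 54.6 and 60.9, 50.6 and 66.0, and 57.9 and 51.1. The list was not tested.

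CATACACTC was noticed in the windows of the strongest 2 peaks at divergent pairs, at rpl-20 and rpl-15, and then counted on both strands. It was in 2 of the 39 and 0 of the other 340, in 2 of 98 reproducible peaks at starts on 1 strand (rps-1 at 140 and tasp-1 at 260) and in 18 of 20337 nuclear peaks (0.0885%). The heat shock element was in 2 of the 39 (F44E5.4 with F44E5.5, and hsp-110 with rpn-3) and 2 of the other 340 (hsp-16.2 with hsp-16.41, and F53C11.4 with F53C11.5). At starts on 1 strand it was in 2 of 98 reproducible peaks (W04C9.4 at 37.8 and smap-1 at 35.9) and 13 of 3047 others. Those 2 signals are under 88.9, the lowest in the IDR list, so these peaks only overlap an IDR peak. Of all nuclear peaks, 90 held the element (0.443%). The peak at hsp-16.2 thus held the letters with a signal of 33.6, and the peak at hsp-110 held them with 136.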
